A study of Mus musculus with 8 samples.

Results

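The 47 genes described here encode ligands, receptors, binding proteins, SMAD proteins and direct targets of the transforming growth factor beta (TGF-beta) and bone morphogenetic protein (BMP) pathways. They were chosen by name from the pathway, with earlier results of these data known. All 47 are among the 49671 genes of the deposited count table. The RNA came from 8 mouse tumors of 1 genotype, HprtCre; Ewsr1-loxP; Atf1-loxP, in which Cre recombination can join Ewsr1 to Atf1 as in human clear cell sarcoma. The tumors received no drug and were frozen when the primary tumor caused morbidity. No age, normal tissue or control genotype is given, so every comparison below is among tumors. Cre at the Hprt locus is not restricted to 1 cell type, and each library holds RNA of the whole tumor, host cells included. The titles end in 1, 2L, 2R, 3, 4a, 4b, 5 and 6, used here as names. The meaning of these numbers and letters is not labelled, nor is it said whether same-number libraries share a tumor or an animal. Each library is counted here as 1 tumor, and p-values measure only the spread between these libraries.

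Ligands of this family bind pairs of type I and type II serine/threonine kinase receptors. TGF-beta and activin receptors phosphorylate SMAD2 and SMAD3, BMP receptors phosphorylate SMAD1, SMAD5 and SMAD9, and both groups use SMAD4 to reach DNA. TGF-beta is secreted in a latent complex held in the matrix by LTBP proteins, activins are captured by follistatins, and BMPs are captured by gremlin, noggin and chordin.

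Library totals ran from 4817902 counts in 3 to 19682149 in 2L. Levels are CPM, counts scaled to a common library size with TMM factors, and levels are compared between genes only as CPM per kb of exon. Library 3 stood apart: nuclear protein-coding genes took 23.6% of its counts, against 57.4% to 93.9% in the other 7, and its TMM factor was 0.394, against 0.830 to 1.37. A count of 3, the limit for a gene with no counts, corresponded to 1.598 CPM in 3 and to at most 0.467 CPM elsewhere, for counting error only. Clear cell sarcoma is known for melanocytic markers, and of 6 such genes Tyr and Mlana had 0 counts in all 8 libraries, Sox10 at most 0.235 CPM and Pmel at most 1.91 CPM. Dct had 0 counts in tumor 6, 74.0 CPM in tumor 3 and 0.467 to 27.4 CPM in the other tumors, and Mitf had 30.3 to 41.1 CPM in 7 libraries and 131 CPM in 3. With library totals in place of TMM, 3 was highest for neither, at 29.2 CPM for Dct and 51.4 CPM for Mitf against at most 37.3 and 53.0 CPM elsewhere. Summed markers of other cells also varied. Skeletal muscle markers reached 19801 CPM in 2L and 6507 CPM in 3 and at most 115 CPM elsewhere, and macrophage markers reached 3259 CPM in 6, against 223 to 1397 CPM elsewhere. In bulk tissue, fewer cells of a type and less RNA per cell cannot be told apart.

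All 47 members averaged at least 1 CPM and 33 averaged at least 10 CPM, and 46 had counts in every library. Their median level was 9.60 CPM per kb, at percentile 76.2 of the 15200 genes that averaged at least 1 CPM, and 24 members lay above the 75th percentile. The highest by role were the targets and the genes of latency and processing, with median levels of 21.2 and 26.7 CPM per kb. Receptors had a median of 10.1 CPM per kb and SMADs 7.86 CPM per kb. TGF-beta and activin ligands had 5.54 CPM per kb, antagonists 3.70 CPM per kb, and BMP and GDF ligands 2.36 CPM per kb. A filter requiring 0.920 CPM in every library, computed before TMM scaling, kept 35 members and 11505 genes in all.

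**Figure D1:**
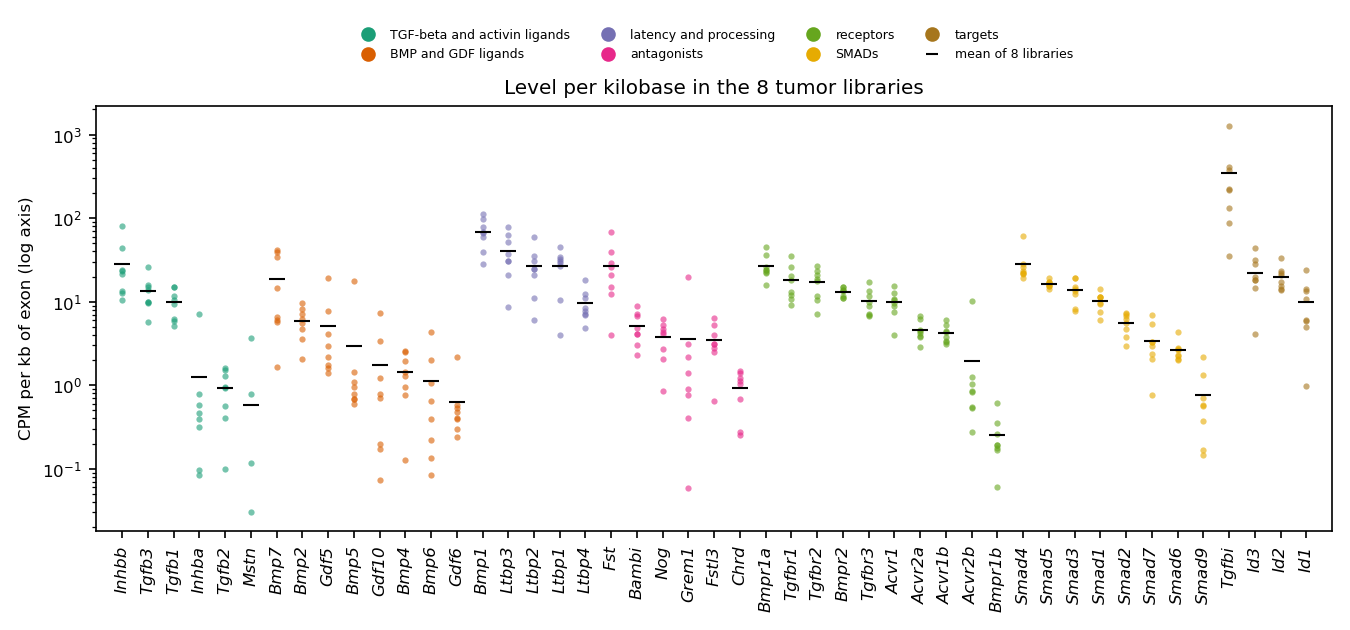
Level of each member in CPM per kb of exon (log axis), by role, in each of the 8 tumor libraries (points, levels of 0 not drawn) and as their mean (bar). By mean, Tgfbi lies highest at 345 CPM per kb and Bmpr1b lowest at 0.252 CPM per kb.

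The TGF-beta ligands Tgfb1 and Tgfb3 were present in every tumor and Tgfb2 was low. Tgfb1 had its lowest level, 25.8 CPM, in 1, a median of 50.3 CPM and its highest, 75.6 CPM, in 4b, with 75.2 CPM in 4a. Tgfb3 had 19.2 CPM in 3, a median of 40.3 CPM and 88.7 CPM in 2L. Per kb of all annotated exons, the means were 9.84 CPM for Tgfb1 and 13.3 CPM for Tgfb3. The order was not the same in every tumor, and Tgfb1 was the higher per kb in 2R, 3 and 4b. Tgfb2 had 0.569 CPM in 6, a median of 5.40 CPM and 9.32 CPM in 1, and no other library lay near the low value of 6, the next being 2.34 CPM in 4b.

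Both activin subunit genes had their highest level in 2R. Inhbb, which encodes the subunit of activin B (mm10 chromosome 1, 119415465 to 119422248, minus strand), was the highest ligand at 28.6 CPM per kb. Its level was 90.4 CPM in 1, 187 CPM in 2L, 339 CPM in 2R, 102 CPM in 3, 45.1 CPM in 4a, 57.9 CPM in 4b, 54.0 CPM in 5 and 98.4 CPM in 6. Both tumors numbered 2 lay above the rest. Inhba, which encodes the subunit of activin A (chromosome 13, 16011851 to 16031621, plus strand), had 295 counts or 45.9 CPM in 2R, and between 0.533 CPM (1 count, in 3) and 5.06 CPM in the other 7. Tumor 2R thus stood 9.08-fold above the next library for Inhba and 1.81-fold above the next for Inhbb. Mstn, a ligand known from skeletal muscle, had 254 counts in 2L, 4 in 3, 3 in 5, 2 in 4a and 0 in the other 4. The highest values were in 2L and 3, the libraries with the highest muscle markers, whose part in the Mstn values was not tested.

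The antagonist of activin, Fst (follistatin), was also highest in 2R. Fst (chromosome 13, 114452290 to 114458951, minus strand) had 316 CPM in 2R, 181 CPM in 4a and 133 CPM in 4b. It had 121 CPM in 1, 95.9 CPM in 5, 68.8 CPM in 6, 56.2 CPM in 2L and 18.1 CPM in 3. The gene averaged 124 ± 92.4 CPM (SD, n = 8), or 26.9 CPM per kb, the highest of the antagonists. The related Fstl3 was low, at 1.598 CPM in 3 (3 counts) and 6.11 to 15.4 CPM in the other 7, and again highest in 2R, but in 4a with library totals in place of TMM. Over the 6 title numbers, with same-number libraries averaged, Inhba and Fst had r = 0.777 (two-sided exact permutation p = 0.0389, 0.104 after Benjamini-Hochberg adjustment over 8 relations). Spearman's rho was 0.829 (exact p = 0.0583, adjusted p = 0.233), and without the numbers 2 and 3 r was 0.869. The relation did not pass the adjustment.

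BMP and GDF ligands were low on average, and most had their high value in 1 or a few tumors. Bmp7 (chromosome 2, 172868012 to 172940321, minus strand), which acts in kidney and skeletal development, was the highest at 18.6 CPM per kb. It had 166 CPM in 3, 157 CPM in 2L, 137 CPM in 6 and 57.9 CPM in 5. It had 26.0 CPM in 1, 24.4 CPM in 4a, 22.7 CPM in 2R and 6.73 CPM in 4b. With library totals in place of TMM, its level in 3 was 65.4 CPM and the highest was 214 CPM, in 2L. Tumors 3, 2L and 6 thus lay above the others with TMM, while with library totals 3 lay far below 2L. Summed muscle markers were high in 2L and 3 as well but were 16.6 CPM in 6, and their part in the Bmp7 levels was not tested. Bmp2 was steadier, from 7.32 CPM in 6 to 34.6 CPM in 2R with a median of 21.1 CPM, although with library totals the ends were 3 and 4a. Bmp4 had 0.285 CPM in 6, a median of 3.07 CPM and 5.77 CPM in 1.

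Tumor 2L was highest for 3 ligands of this group. Bmp5 had 71.0 CPM in 2L and 2.40 to 5.86 CPM in the other 7. Gdf5, which acts in joint formation, had 44.3 CPM in 2L, 17.9 CPM in 1 and 3.23 to 9.59 CPM in the other 6. Gdf10, a relative of Bmp3, had 38.4 CPM in 2L, 17.5 CPM in 5, a median of 3.84 CPM and 0.378 CPM in 4b. Of the 4 keratinocyte markers, Dsg3 (396 and 280 CPM) and Krt14 (45.6 and 55.1 CPM) were also highest in 2L and 5, while Krt5 had 193 CPM in 3 and at most 1.32 CPM elsewhere, and Krt10 was lowest in 2L at 0.314 CPM. The muscle markers were highest in 2L, and the part of these markers in the ligand values was not tested. Bmp6 had 17.0 CPM in 3, a median of 2.04 CPM and 0.331 CPM in 4a. With library totals it was highest in 1, at 8.66 CPM against 6.71 CPM in 3, and its exons (247 counts in all) overlap those of Txndc5 (18600 counts), with strand handling not stated. Gdf6 had 7.64 CPM in 1 and 0.843 to 2.02 CPM in the other 7.

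**Figure D2:**
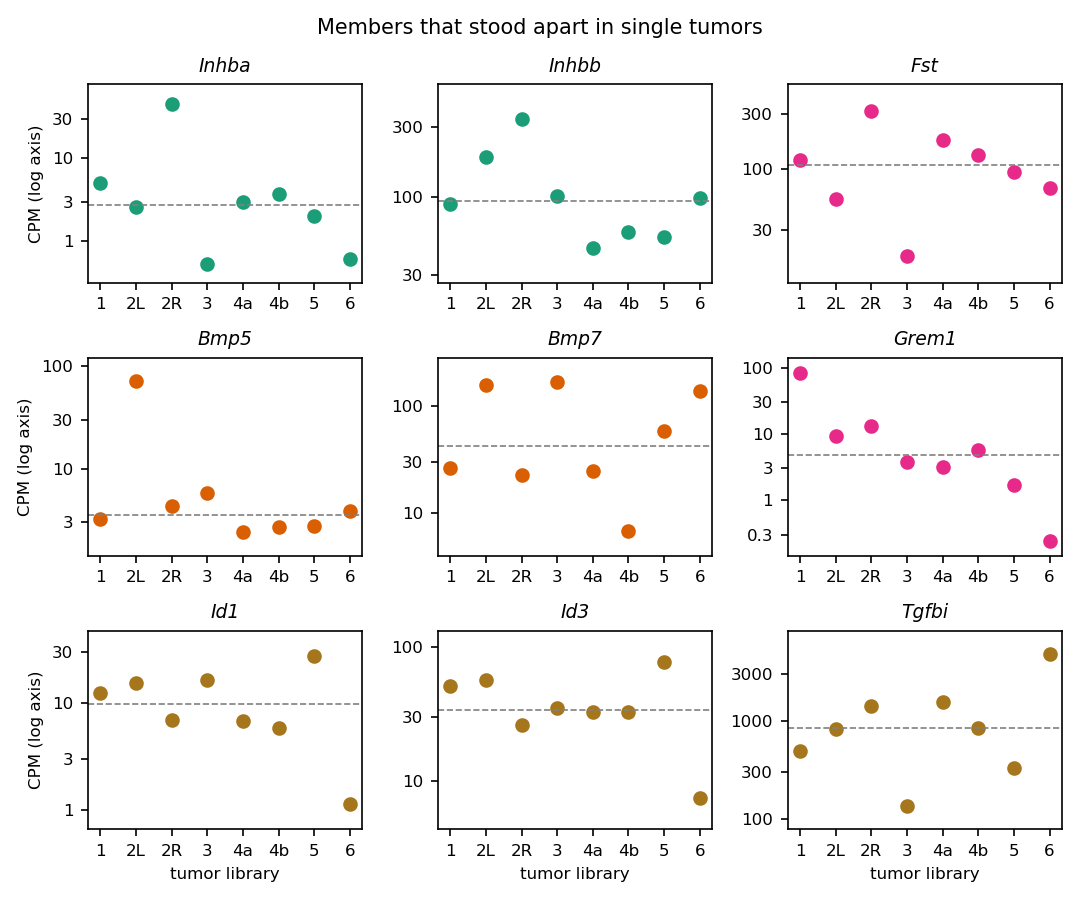
Levels of 9 members in each of the 8 libraries, in CPM on log axes, with a dashed line at each gene's median. Inhba, Inhbb and Fst are highest in 2R, Bmp5 in 2L and Grem1 in 1, while Id1 and Id3 are lowest in 6, where Tgfbi is highest at 4826 CPM.

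The genes of latency and processing were high on average, with a median at percentile 93.1 of genes by level per kb, and 3 was lowest for 4 of the 5. Of all genes that passed the filter, 31.2% were lowest in 3 with TMM and 75.2% with library totals. Bmp1, the protease that cleaves procollagen and chordin, averaged 606 ± 243 CPM (SD, n = 8), or 68.3 CPM per kb. Its lowest level was 251 CPM in 3, its median 591 CPM and its highest 986 CPM in 6. Ltbp3 had 79.4 CPM in 3, a median of 310 CPM and 709.6 CPM in 2R, and with library totals it was highest in 4b. Ltbp2, the one LTBP that does not bind latent TGF-beta, had 50.1 CPM in 3, a median of 203 CPM and 489 CPM in 2L. Ltbp4 was the lowest of the 4 LTBP genes, with 31.6 CPM in 4a, a median of 51.9 CPM and 116 CPM in 2L.

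Ltbp1 (chromosome 17, 75005568 to 75392512, plus strand) had 42.6 CPM in 3 and 113 CPM in 5, against 286 to 485 CPM in the other 6. The SD of its log2 CPM was 1.16 with 3 and 0.661 without it. ATF1, the DNA-binding partner in the fusion protein, is known to bind the cAMP response element TGACGTCA, and the promoters of members were searched for it in the RefSeq windows of 250 bases before to 50 after each start, on GRCm38.p6, both strands. Windows were held for 33 members. The full element stood in 1 of the 33 (3.03%), a window of Ltbp1, and in 549 of 27025 genes (2.03%). Its core TGACG, which lies within the full element, stood in 8 of 33 (24.2%), namely Tgfb2, Mstn, Chrd, Ltbp1, Smad1, Smad5, Smad9 and Id3, and in 6228 genes (23.0%). The SMAD element GTCTAGAC stood in 1 of 33, Smad6, and in 0.248% of genes. The 250 bases before the start are given for Ltbp1 (chr17:75005279-75005528, plus strand), which holds the full element, and for Tgfb2 (chr1:186705990-186706239, minus strand), a ligand with the core alone. Capitals mark the match, which for Tgfb2 is the core read on the other strand, CGTCA.
Ltbp1: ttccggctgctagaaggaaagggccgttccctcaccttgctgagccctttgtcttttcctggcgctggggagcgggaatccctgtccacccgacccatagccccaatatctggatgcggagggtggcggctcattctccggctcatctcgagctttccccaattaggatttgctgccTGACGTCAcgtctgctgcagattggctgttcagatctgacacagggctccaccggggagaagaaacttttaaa
Tgfb2: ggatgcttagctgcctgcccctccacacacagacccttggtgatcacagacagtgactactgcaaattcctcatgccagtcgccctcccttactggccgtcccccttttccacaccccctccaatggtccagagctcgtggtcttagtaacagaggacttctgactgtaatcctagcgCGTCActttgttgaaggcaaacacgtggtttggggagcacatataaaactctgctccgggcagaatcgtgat
A match is a run of letters and was not measured as binding. The match begins 73 bases before the start in Ltbp1 and 72 bases before it in Tgfb2. The mean levels of these genes were 26.6 CPM per kb for Ltbp1 and 0.916 CPM per kb for Tgfb2.

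Among the BMP antagonists, Grem1 was high in 1 tumor. Grem1 (gremlin; chromosome 2, 113746164 to 113758646, minus strand) had 82.7 CPM in 1, 13.1 CPM in 2R and 9.09 CPM in 2L. It had 5.74 CPM in 4b, 3.73 CPM in 3, 3.15 CPM in 4a, 1.69 CPM in 5 and 0.244 CPM in 6. Tumor 1 lay 339-fold above 6 and 6.32-fold above the next tumor. Noggin (Nog) had 1.46 CPM in 6, a median of 7.17 CPM and 10.6 CPM in 2R. Chordin (Chrd) had 1.598 CPM in 3 (3 counts), 1.75 CPM in 6, a median of 6.75 CPM and 9.15 CPM in 1. Bambi, a receptor-like protein without a kinase, had 11.6 CPM in 1, a median of 22.7 CPM and 44.99 CPM in 2L. Grem1, Nog and Bmp4 were thus each lowest in 6, and Chrd was lowest but for 3. Of all genes that passed the filter, 16.4% were lowest in 6, but Grem1, Bmp4 and Chrd did not pass it.

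Receptors varied less than ligands, with a median SD of log2 CPM of 0.543 over the 10 receptors. It was 1.11 over the TGF-beta and activin ligands and 1.43 over the BMP and GDF ligands. The filter on low counts kept 8 of the 10 receptors, but 3 of 6 TGF-beta and activin ligands and 4 of 8 BMP and GDF ligands. The part of low counts in the difference was not tested. The highest per kb were the type I receptors Bmpr1a (27.0 CPM per kb) and Tgfbr1 (18.1 CPM per kb) and the type II receptors Tgfbr2 (17.1 CPM per kb) and Bmpr2 (13.2 CPM per kb). Bmpr1a had 102 CPM in 3, a median of 151 CPM and 288 CPM in 2L. Bmpr2 was among the steadiest genes, with 199 CPM in 4a, a median of 246 CPM and 271 CPM in 6, and an SD of log2 CPM of 0.183 (0.194 without 3), at percentile 2.85 of the genes that passed the filter. With library totals it was lowest in 3, at 98.4 CPM against 167 to 369 CPM in the other 7. Tgfbr1 had 59.8 CPM in 1, a median of 102 CPM and 228 CPM in 2L. Tgfbr2 had 58.1 CPM in 3, a median of 149 CPM and 217 CPM in 6. Tgfbr3 (betaglycan, which presents TGF-beta to the other receptors) had 43.97 CPM in 2L, a median of 61.4 CPM and 114 CPM in 1.

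Among activin receptors, Acvr2b stood out in 1 library. It had 39.95 CPM in 3 (75 counts), against 1.09 to 4.95 CPM in the other 7, and without TMM it was still highest there, at 15.7 CPM against at most 5.56 CPM. The SD of its log2 CPM was 1.49 with 3 and 0.692 without it. Acvr1 had 19.2 CPM in 3, a median of 48.8 CPM and 73.4 CPM in 4b. Acvr1b, with 13.8 to 26.3 CPM, and Acvr2a, with 16.4 to 37.9 CPM, were both highest in 5, and in 6 with library totals. Acvr2a had 3192 counts in all and shares exon bases with Orc4, which had 5985. Bmpr1b was the lowest member per kb, with 0.366 CPM in 6, a median of 1.15 CPM and 3.64 CPM in 1.

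SMAD genes were present in all tumors. Their median SD of log2 CPM was 0.478, near the 0.513 over all genes that passed the filter, and Smad5 was the steadiest. Smad5 had 105 CPM in 6, a median of 121 CPM and 144 CPM in 4b, and the SD of its log2 CPM, 0.139, was at percentile 0.817 of the genes that passed the filter (0.146 without 3). With library totals it too was lowest in 3, at 50.55 CPM against 98.7 to 172 CPM in the other 7. Smad4 had 225 CPM in 3 and 71.9 to 104 CPM in the other 7. Without TMM its level in 3, 88.5 CPM, lay within the 66.8 to 124 CPM of the others, so whether it is high in 3 rests on the scaling. Smad1 had 37.9 CPM in 6, a median of 66.0 CPM and 89.4 CPM in 1. Smad2 had 26.1 CPM in 3, a median of 52.0 CPM and 64.6 CPM in 4a. Smad3 had 42.97 CPM in 5, a median of 76.4 CPM and 106 CPM in both 4a and 4b.

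Smad9 and Smad7 were the most variable SMAD genes, with SDs of log2 CPM of 1.26 and 0.955, against at most 0.519 for the other 6. Smad9 had 11.7 CPM in 3, 7.16 CPM in 5, a median of 3.07 CPM, and 0.787 CPM in 4a with 0.907 CPM in 4b, so both tumors numbered 4 lay below the other 6. Without TMM it was highest in 5, at 7.14 CPM against 4.62 CPM in 3. The inhibitory SMADs were both highest in 5. Smad7 had 31.7 CPM in 5, a median of 14.1 CPM and 3.41 CPM in 6, and Smad6 had 13.8 CPM in 5 and 6.39 to 8.99 CPM in the other 7.

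**Figure D3:**
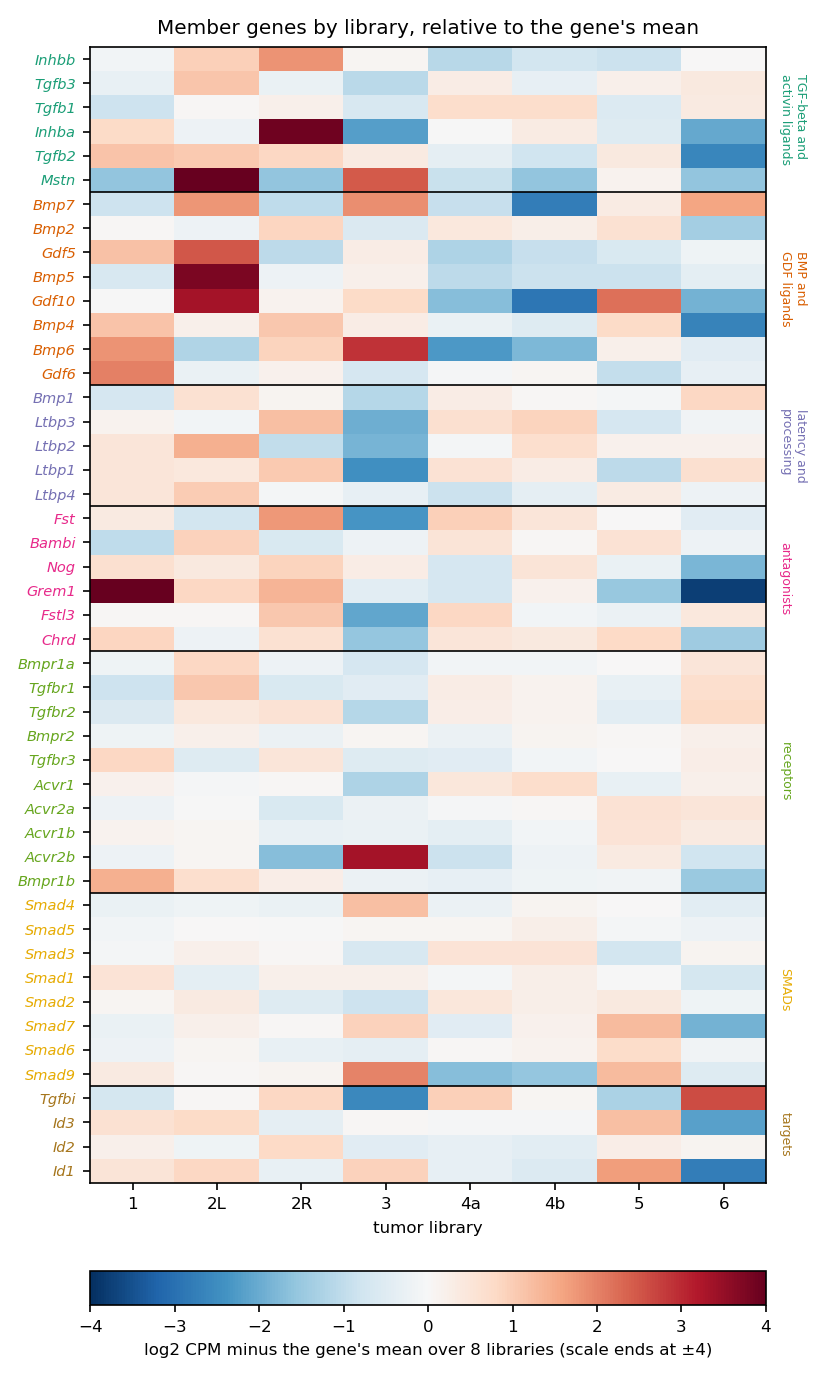
Log2 CPM of each of the 47 members (rows, grouped by role) minus the gene's mean, in each of the 8 libraries (columns). Of the 35 members that passed the filter, 13 have their lowest value in 3, 8 have it in 6, and 8 have their highest in 2L, against 31.2%, 16.4% and 12.7% of all genes that passed.

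Targets of the pathways had opposite extremes in tumor 6. Tgfbi, a matrix protein named for its induction by TGF-beta (chromosome 13, 56609523 to 56639562, plus strand), was the highest member, at 345 CPM per kb. It had 4826 CPM in 6, 1551 CPM in 4a, 1407 CPM in 2R and 843 CPM in 4b. It had 824 CPM in 2L, 492 CPM in 1, 327 CPM in 5 and 133 CPM in 3. Tumor 6 lay 3.11-fold above the next. The macrophage markers were also highest there, for 6 of 6 genes, with 3259 CPM summed against at most 1397 CPM elsewhere, and their part in the Tgfbi level was not tested.

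The Id genes, which encode inhibitors of basic helix-loop-helix factors and are direct BMP targets, did not move as 1 group. Id1 (chromosome 2, 152736251 to 152737410, plus strand) had 27.6 CPM in 5, 16.5 CPM in 3, 15.4 CPM in 2L and 12.4 CPM in 1. It had 7.01 CPM in 2R, 6.83 CPM in 4a, 5.82 CPM in 4b and 1.14 CPM in 6. Id3 had 77.6 CPM in 5, 56.9 CPM in 2L, 51.1 CPM in 1 and 35.2 CPM in 3. It had 32.9 CPM in 4b, 32.6 CPM in 4a, 26.3 CPM in 2R and 7.40 CPM in 6. Tumor 5 was thus 24.2-fold above 6 for Id1 and 10.5-fold for Id3, and with library totals Id3 was highest in 2L. Id2 had 50.4 CPM in 6, close to its median of 46.2 CPM. Its lowest values were 34.1 CPM in 3 and 34.7 CPM in 4b, and its highest 80.7 CPM in 2R. Id1, Id3, Smad7, Bmp4, Grem1, Nog and Tgfb2 were each lowest in 6 under all 4 scalings tried. The share of all genes lowest in 6 under all 4 scalings was not computed. Bmp4, Grem1 and Tgfb2 did not pass the filter, so the share given next does not cover them. With TMM, 8 of the 35 members that passed the filter were lowest in 6, beside 16.4% of all genes that passed. Id1 and Id3 are also expressed in endothelial cells. Summed endothelial markers ran from 363 to 1711 CPM over the libraries, with 1275 CPM in 6 and 420 CPM in 5. In 6, Kdr (833 CPM) and Egfl7 (365 CPM) held most of the sum. The other marker genes were all lower in 6 than in 5, such as Pecam1 (29.1 against 98.8 CPM), and 5 of the 8 were lowest in 6. The part of endothelial cells in the Id levels was not tested.

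Relations of these targets with upstream members were computed over the 6 title numbers, and 0 of the 8 passed the adjustment. Id1 and Id3 had r = 0.960 (p = 0.0125 in a two-sided exact permutation test, adjusted p = 0.0889), with a Spearman's rho of 0.829 (exact p = 0.0583, adjusted p = 0.233). Leaving out the numbers 6 and 5, the farthest from the median of Id1, gave r = 0.373. Such a step cuts the range of the first gene, so here and below it cannot show what a relation depends on. Id1 and Bmp4 had r = 0.926 (exact p = 0.0222, adjusted p = 0.0889) and rho = 0.714 (exact p = 0.136, adjusted p = 0.272), with r = 0.617 without the same numbers. Tgfb1 and Tgfbi had r = 0.752 (exact p = 0.0736, adjusted p = 0.138) and rho = 0.771 (exact p = 0.103, adjusted p = 0.272), with r = 0.963 without the numbers 4 and 1. The other relations were Id1 with Id2 (r = 0.0339), with Smad6 (r = 0.373) and with Bmp2 (r = 0.752), and Tgfb1 with Smad7 (r = -0.530), with adjusted permutation p from 0.138 to 0.964. Without the 2 numbers farthest from the median, r was 0.0442 for Id1 with Id2, -0.994 for Id1 with Smad6, -0.816 for Id1 with Bmp2 and -0.893 for Tgfb1 with Smad7, so the sign turned for Smad6 and Bmp2. The smallest exact p that 6 numbers allow was 0.00278. With library totals in place of TMM, 4 of the 8 passed: Id1 with Id3, Id1 with Bmp4, Inhba with Fst, and Tgfb1 with Tgfbi. With library totals, 75.2% of all genes tested were lowest in 3, against 31.2% with TMM. The part of library 3 in these relations was not tested.

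**Figure D4:**
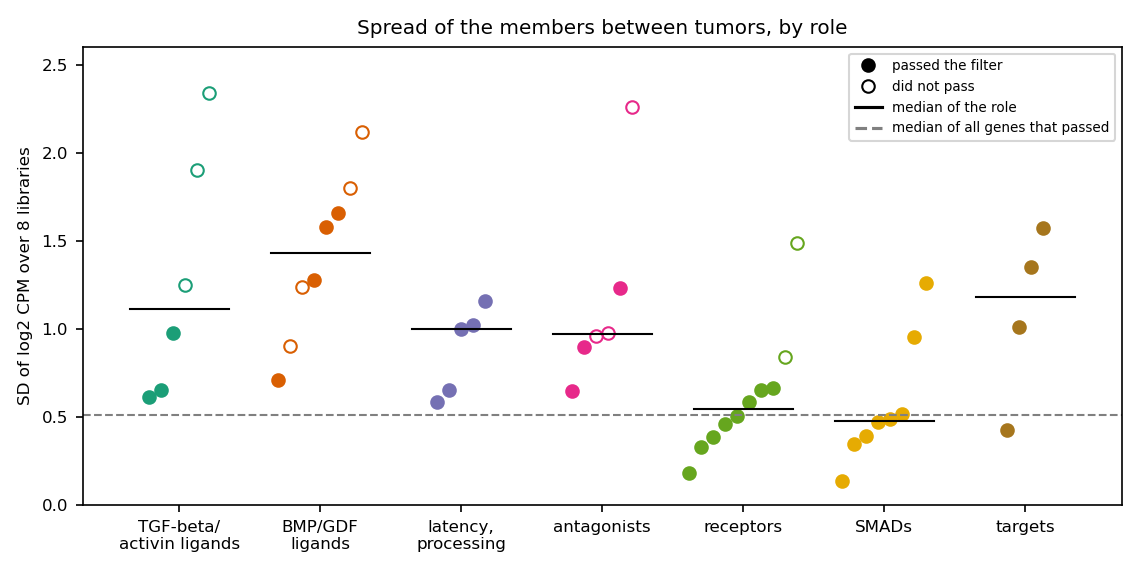
SD of log2 CPM over the 8 libraries for each member (points), by role, with the median of each role (line) and of all genes that passed the filter (dashed, 0.513). Filled points passed the filter on low counts. The role medians, over filled and open points alike, run from 0.478 for SMADs to 1.43 for BMP and GDF ligands.

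Across all members, the median SD of log2 CPM was 0.902 (0.697 without 3). Of the 35 that passed the filter, 24 (68.6%) had an SD above the median of all such genes, and their median SD was 0.653 against 0.513 over all genes (0.614 against 0.388 without 3). The filter left out the members with the 5 highest SDs, Mstn, Grem1, Gdf10, Inhba and Bmp6, from 1.80 to 2.34, so the values over members that passed do not cover them.

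Whether members differed among the 6 title numbers was tested in edgeR (quasi-likelihood F-test) on all 11505 genes, with 2 residual degrees of freedom. At an adjusted p below 0.05 the test called 0 of 35 members, as it called 0% of all genes. The lowest edgeR adjusted p among members was 0.107, for Smad9. At an unadjusted p below 0.05 it gave 12 of 35 members (34.3%), against 24.5% of all genes. These were Smad9, Tgfbi, Smad7, Ltbp1, Inhbb, Id1, Tgfb1, Tgfbr2, Smad4, Id3, Acvr1 and Smad3. The DESeq2 likelihood ratio test called 12 of 35 members (34.3%), against 20.7% of all genes. Its calls were Tgfbi (adjusted p = 5.72e-11), Ltbp1 (4.79e-05), Inhbb (7.1e-05), Id1 (0.000131), Smad9 (0.000263), Bmp5, Smad7, Id3, Ltbp3, Bmp7, Tgfbr2 and Tgfb1. The tools thus differed on whether any member differs among numbers, and the edgeR count of members was 25 of 36 (69.4%) without 2R, against 39.3% of all genes, and 22 of 35 (62.9%) without 2L, against 38.7%, each with 1 residual degree of freedom.

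Libraries that share a number differed little in one pair and widely in the other, with 1 library on each side and no test. Between 2L and 2R, 14 of 47 members (29.8%) were at least 2-fold higher in 2L, against 13.8% of 15004 genes, and 7 (14.9%) were at least 2-fold lower, against 12.5%. The log2 ratio of 2L over 2R was 6.2 for Mstn, 3.98 for Bmp5, 3.52 for Gdf5, 3.20 for Gdf10 and -4.10 for Inhba. It was 2.78 for Bmp7, 2.43 for Ltbp2, -2.49 for Fst and -2.12 for Bmp6. Bmp5 and Bmp7, which DESeq2 called among title numbers, thus also lay far apart within number 2. Between 4a and 4b, 1 of 43 members (2.33%) was at least 2-fold higher in 4a, against 3.47% of 14277 genes, and 1 was at least 2-fold lower, against 3.31%. These were Bmp7, with a log2 ratio of 1.84, and Nog, with -1.19. The next were Fstl3 (0.92), Tgfbi (0.88) and Grem1 (-0.84). The SD of the log2 ratio over all genes was 0.907 for 2L over 2R and 0.486 for 4a over 4b, so the first pair was the wider one for genes at large too.

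**Figure D5:**
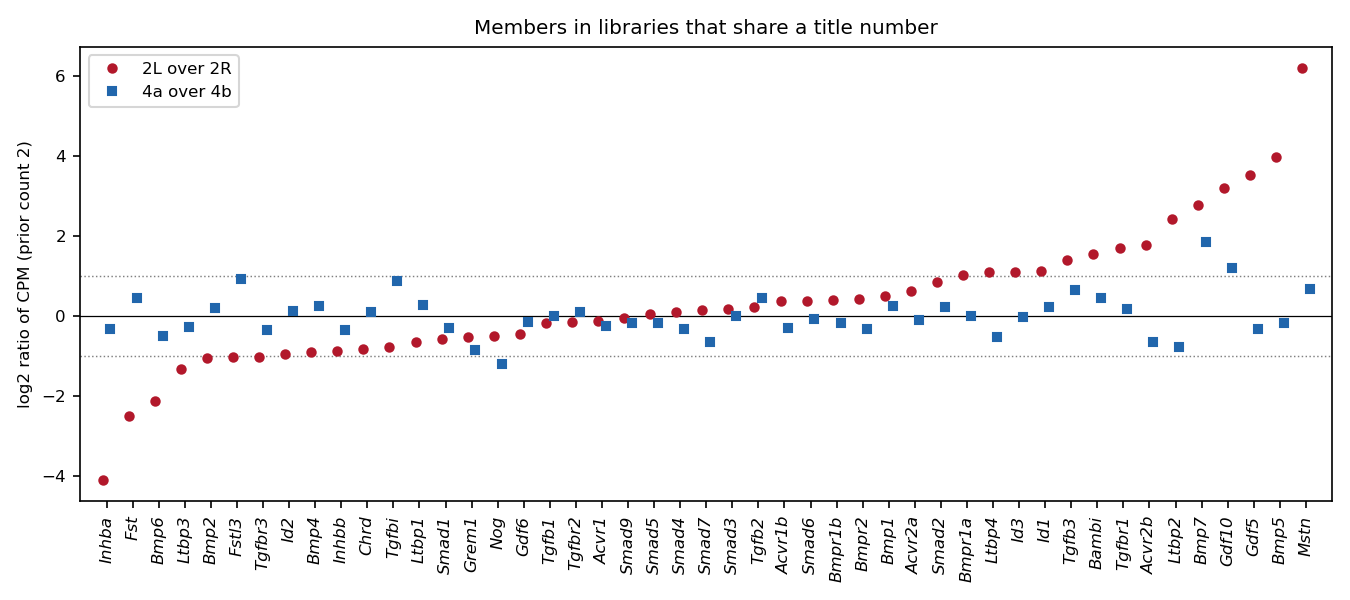
Log2 ratio of each member between libraries of the same title number, 2L over 2R and 4a over 4b, with lines at a 2-fold difference. Gdf10 is drawn for 4a over 4b at 1.19 but not counted, since the pair averaged under 1 CPM. The 2L over 2R ratios run from -4.10 for Inhba to 6.2 for Mstn, and the 4a over 4b ratios from -1.19 for Nog to 1.84 for Bmp7.

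A further 61 pathway genes outside the 47 were listed, of which 47 averaged at least 1 CPM and 36 passed the filter. The edgeR test called 0 of the 36 at an adjusted p below 0.05 and 14 at an unadjusted p below 0.05, against 0% and 24.5% of all genes, and DESeq2 called 16, against 20.7%. Among ligands, Gdf11 had 10.5 to 23.3 CPM and Lefty1 0.907 to 12.3 CPM, and Bmp8b had 19.7 CPM in 3, 7.84 CPM in 2L and at most 0.316 CPM elsewhere. Among receptors, the activin-like receptor Acvr1c had 164 CPM in 2R, where Inhba and Inhbb were highest, and 3.20 to 47.4 CPM in the other 7. The endothelial coreceptor Eng had 100.3 CPM in 5, where Id1 and Id3 were highest, and 18.4 to 40.2 CPM in the other 7. The coreceptor Hfe2 (hemojuvelin), known from muscle and liver, had 19.75 CPM in 2L, 4.79 CPM in 3 and at most 0.156 CPM elsewhere.

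Among extracellular modulators outside the 47, Fstl1 had 165 CPM in 3 and 535 to 1043 CPM elsewhere. Twsg1, which binds BMPs with chordin, had 856 CPM in 6, a median of 306 CPM and 138 CPM in 5, and Chrdl1 had 36.65 CPM in 5, a median of 4.14 CPM and 0.894 CPM in 6. Of the genes that release latent TGF-beta or hold it in the matrix, Mmp14 had 109 CPM in 3 to 435 CPM in 2R, Fbn1 83.1 CPM in 3 to 764 CPM in 5, and the epithelial integrin subunit Itgb6 32.6 CPM in 2L and 0.227 to 4.79 CPM elsewhere. The corepressor Ski was steady, from 88.4 to 129 CPM, while its relative Skil ranged from 71.4 CPM in 3 to 278 CPM in 4b. Pmepa1, a target and inhibitor of TGF-beta signaling, had 233 CPM in 2L and 48.2 to 97.5 CPM elsewhere. Among further targets, Ccn2 had 271 CPM in 5 and 26.6 CPM in 3 with a median of 99.2 CPM, Id4 had 85.6 CPM in 6 and 11.2 CPM in 3 with a median of 44.9 CPM, and Msx2 had 4.08 CPM in 1 and 0 counts in 6. Id4 was thus highest in the tumor in which Id1 and Id3 were lowest, but only just, with 84.3 CPM in 4b.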

How the data were processed

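The authors' deposited table gives raw counts per gene for 8 tumor libraries (ribosomal-RNA-depleted total RNA, per the labels). The build was mm10 and the tools were STAR 2.7.5a, RSEM, featureCounts and cutadapt, per the submitters' processing notes. Which tool made the counts, and strand handling, are not given in the sources used here, so reads of overlapping genes (14 members) may be shared. Symbols came from GENCODE M21 by gene ID (99.48% matched).

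The counts were tested with edgeR 4.0.16 in R 4.3.3 (filterByExpr with a minimum of 10 counts, TMM, prior count of 2 for log2 CPM, robust quasi-likelihood F-test among title numbers, Benjamini-Hochberg adjustment over 11505 genes) and, as an alternative, DESeq2 1.42.0. Steps were tested on simulated data. For each role, the highest members per kb and those of largest SD were named, with members that stood apart in 1 library, the largest same-number ratios and, outside the 47, the highest and most variable of each class. Alternatives were other scalings, filters and prior counts, and leaving out each library. The members, lists and tests were chosen with earlier results of these data known.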

Additional observations from a re-analysis of the deposited data

Results flagged for a closer look

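In 8 of the 47 members and 4 of the 47 further pathway genes averaging at least 1 CPM, 1 library lay apart from the other 7 by more than Dixon's limit at the 95% level, on log2 CPM. Chance flags about 1 in 20 groups if log2 CPM is normally distributed, and the share flagged over all genes was not computed. With TMM, library 3 was highest for 29.6% and lowest for 31.2% of all genes that passed the filter. Of the flagged members, Acvr2b, Bmp4, Gdf6 and Fstl3 did not pass it. Library 3 gave 4 of the 12: Acvr2b was high there (39.95 CPM, next 4.95 CPM in 5), Smad4 was high (225 CPM, next 104 CPM in 4b), and Fstl3 (1.598 CPM, next 6.11 CPM in 5) and Fstl1 (165 CPM, next 535 CPM in 2R) were low. Tumor 6 was low for Bmp4 (0.285 CPM, next 1.74 CPM in 4b), Id3 (7.40 CPM, next 26.3 CPM in 2R) and Hey1 (3.94 CPM, next 9.03 CPM in 2R). Hey1 encodes a repressor that responds to Notch and BMP signals. Tumor 5 was high for Smad6 (13.8 CPM, next 8.99 CPM in 4b) and Eng (100.3 CPM, next 40.2 CPM in 2L). Tumor 2L was high for Bmp5 (71.0 CPM, next 5.86 CPM in 3) and Pmepa1 (233 CPM, next 97.5 CPM in 3), and tumor 1 for Gdf6 (7.64 CPM, next 2.02 CPM in 2R).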

How the results depend on the processing

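The counts of genes that differed among title numbers depended on the tool, scaling and filter. Against 0 genes and 0 members with edgeR, DESeq2 called 2383 genes and 12 members, library totals without TMM gave 3791 (33%) and 21 (60%), and no filter gave 6260 (20.6%) and 25 (53.2%). Leaving out 1 library gave 0 to 4548 genes and 0 to 25 members, with the high values without 2R (4548 genes) and without 2L (4457 genes, 22 members). The residual spread of the test comes only from 2L with 2R and 4a with 4b. Leaving out 2L or 2R therefore leaves 4a with 4b alone. The SD of the log2 ratio was 0.907 for 2L over 2R and 0.486 for 4a over 4b. The part of this difference in the counts was not tested. With library totals, 4 rather than 2 members differed at least 2-fold between 4a and 4b, and 4 rather than 0 relations passed. The r of Id1 with Id2 was -0.056 without 2L and -0.036 without 2R, and at most 0.061 without 4a or 4b, and it was 0.321 with totals of nuclear protein-coding genes. The highest library was the same under 4 scalings for 30 of 47 members and the lowest for 25. Of the 35 members that passed the filter, 37.1% were lowest in 3 with TMM, 34.3% with DESeq2 size factors, 77.1% with library totals and 31.4% with totals of nuclear protein-coding genes, against 31.2%, 29.9%, 75.2% and 26.5% of all genes tested. Depth limits library 3 most, where 3 counts are 1.598 CPM. No paired analysis was possible because the labels give 1 group.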
